A study of Mus musculus with 6 samples.

Results

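The Wnt reception and target genes of the blood-brain barrier (BBB) described here are 10 of the 23183 gene symbols measured in each library, and they were chosen by symbol. *Fzd4*, *Fzd6*, *Lrp5*, *Lrp6*, *Reck* and *Tspan12* encode parts of the receptor complexes, *Lef1* and *Tcf7* encode DNA-binding partners of β-catenin, and *Axin2* and *Apcdd1* are direct targets of the pathway. RNA came from brain microvessels of WT mice (TEK-cre, *Crif1*+/+) and TEKCRIF1 KO mice (TEK-cre, *Crif1* flox/flox), both of C57BL/6 background by the labels, with 3 mice and 3 libraries in each group. Both groups carried the Cre recombinase, which is driven by the endothelial Tek promoter and is also known to be active in blood cell lineages. Age and sex were not given in the sources used here. *Crif1* (*Gadd45gip1*) encodes a protein of the mitochondrial ribosome, and its level was 15.3 to 18.8 FPKM in WT and 7.54 to 10.8 FPKM in KO microvessels. FPKM values are scaled to transcript length and library size, so levels of different genes can be set side by side. Where 3 values are given for a group, they follow the numbers of its libraries.

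In brain endothelium, canonical Wnt signaling starts with Wnt7a and Wnt7b from neural cells or with norrin, which bind Frizzled receptors together with an Lrp5 or Lrp6 co-receptor. Reck and the adhesion receptor Adgra2 make the Frizzled complex responsive to the Wnt7 ligands, and Tspan12 strengthens the response of Fzd4 to norrin. The signal protects β-catenin from degradation, and β-catenin then acts with Lef1 and Tcf factors on target genes. The pathway is known for inducing and keeping barrier properties in brain vessels. Axin2 and Apcdd1 both limit the pathway that switches them on, so their transcripts are widely used as readouts of its activity.

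Promoter windows are shown first, because *Axin2* was one of the genes whose groups did not overlap and *Lef1* had the only member window with a TCF and LEF core. RefSeq windows (GRCm38.p6, the same build as the mm10 of the submitters' processing notes) were found for 6 of the 10 genes, namely *Axin2*, *Fzd4*, *Lef1*, *Reck*, *Tcf7* and *Tspan12*. Each sequence below holds the 250 bases before a transcript start, read 5′ to 3′ on the plus strand, with any CTTTGA or its reverse complement TCAAAG in capitals. The *Axin2* window lies at chr11:108920099-108920348, before an annotated start inside the gene span, and the *Lef1* windows shown, 2 of 4 in the table, lie at chr3:131110047-131110296, before the first start, and at chr3:131156044-131156293, before a start inside the gene.
Axin2: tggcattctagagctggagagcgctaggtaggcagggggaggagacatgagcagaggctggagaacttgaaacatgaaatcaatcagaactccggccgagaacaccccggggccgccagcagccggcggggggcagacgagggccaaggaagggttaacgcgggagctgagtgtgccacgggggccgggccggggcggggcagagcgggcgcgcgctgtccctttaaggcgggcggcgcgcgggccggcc
Lef1, first start: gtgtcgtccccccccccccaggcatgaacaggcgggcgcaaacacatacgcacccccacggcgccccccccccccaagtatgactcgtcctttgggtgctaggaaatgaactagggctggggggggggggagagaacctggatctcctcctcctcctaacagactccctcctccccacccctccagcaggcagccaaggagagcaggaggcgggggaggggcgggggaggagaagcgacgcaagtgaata
Lef1, internal start: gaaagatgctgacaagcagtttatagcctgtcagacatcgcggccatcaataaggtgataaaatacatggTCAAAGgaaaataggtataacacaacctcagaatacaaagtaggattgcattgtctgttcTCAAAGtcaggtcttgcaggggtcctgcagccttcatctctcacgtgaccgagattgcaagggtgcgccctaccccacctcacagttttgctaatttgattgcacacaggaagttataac

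The internal *Lef1* window held 2 cores, which begin 180 and 120 bases before the start. None of the other 9 windows of the 6 genes held these letters, which says nothing about TCF or LEF binding elsewhere in the genes. Over 32851 promoter windows of the same length, 13.8% held at least 1 core, and 1.4% held 2 or more. The GC content of the windows ranged from 42.0% for *Tspan12* to 76.0% for *Tcf7*.

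All 10 genes passed the filter of a mean of at least 1 FPKM, and the lowest value of any of them in any library was 5.13 FPKM. *Apcdd1* was by far the most abundant, with a mean of 142 FPKM in WT mice. *Fzd6* and *Lrp5* followed with 27.9 and 26.9 FPKM and overlapping WT values. *Axin2* (20.7 FPKM), *Tcf7* (17.5 FPKM) and *Lef1* (16.8 FPKM) came next, and *Reck* (13.2 FPKM), *Fzd4* (11.8 FPKM), *Lrp6* (10.3 FPKM) and *Tspan12* (9.70 FPKM) were lowest. In the WT order, only *Apcdd1* from *Fzd6* and *Lrp5* from *Axin2* were separated without overlap, and the other 7 pairs of neighbours did not differ beyond their spread. By mean FPKM over the 6 libraries, the 10 genes stood between the 70.1 and the 98.0 percentile of all gene symbols. Depth was estimated from the spacing of the smallest values at 6200000 to 11400000 fragments per library, so that the values of the 10 genes rested on about 111 fragments (*Tspan12* in WT 2) to about 17107 fragments (*Apcdd1* in WT 1). These fragment numbers assume the longest annotated transcript, and 3 fragments on 1 kb correspond to 0.26 to 0.48 FPKM, which covers counting error only.

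**Figure D1:**
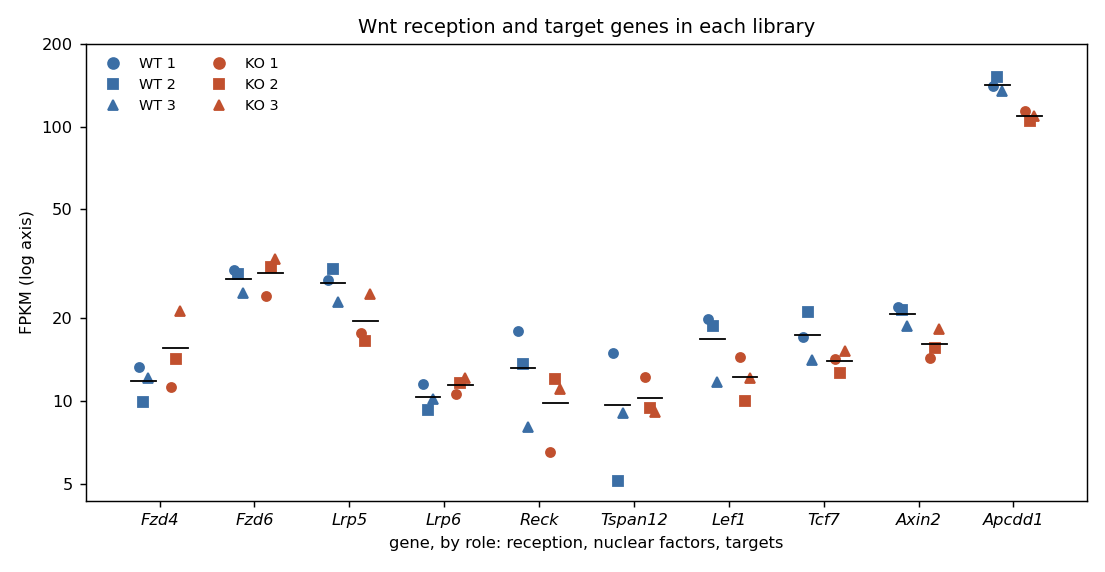
FPKM of the 10 genes in each library on a log axis, with WT libraries in blue, KO libraries in orange and a black line at each group's mean (n = 3 mice each). Only *Axin2* and *Apcdd1* have all KO points under all WT points.

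KO mice were compared with WT mice to ask whether loss of *Crif1* in endothelial cells goes with other levels of these genes. With limma on log2(FPKM + 1), 0 of the 10 genes had an adjusted p under 0.05 (smallest adjusted p from limma 0.841) and 0 had an unadjusted p under 0.05, where the smallest was 0.0682 for *Lrp5*. Over all 14247 genes tested, 0.00% passed after adjustment and 5.88% had an unadjusted p under 0.05, 3.11% lower and 2.77% higher in KO mice. This count of 838 genes became 450 without WT 2, 510 without KO 1 and 1871 without KO 2. The log2 fold change was below 0 for 6 of the 10 genes, against 50.8% of all genes, and its median was −0.32 against −0.01 for all genes. That median was −0.20 without WT 1 or without KO 1. KO values lay entirely below WT values for 2 of the 10 genes and entirely above for 0, against 5.70% and 5.37% of all genes. With 3 mice a group, the smallest p of a two-sided exact permutation test is 0.1, which was reached by the same 2 genes. As these are bulk samples, fewer cells of a type and less RNA per cell cannot be told apart.

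**Figure D2:**
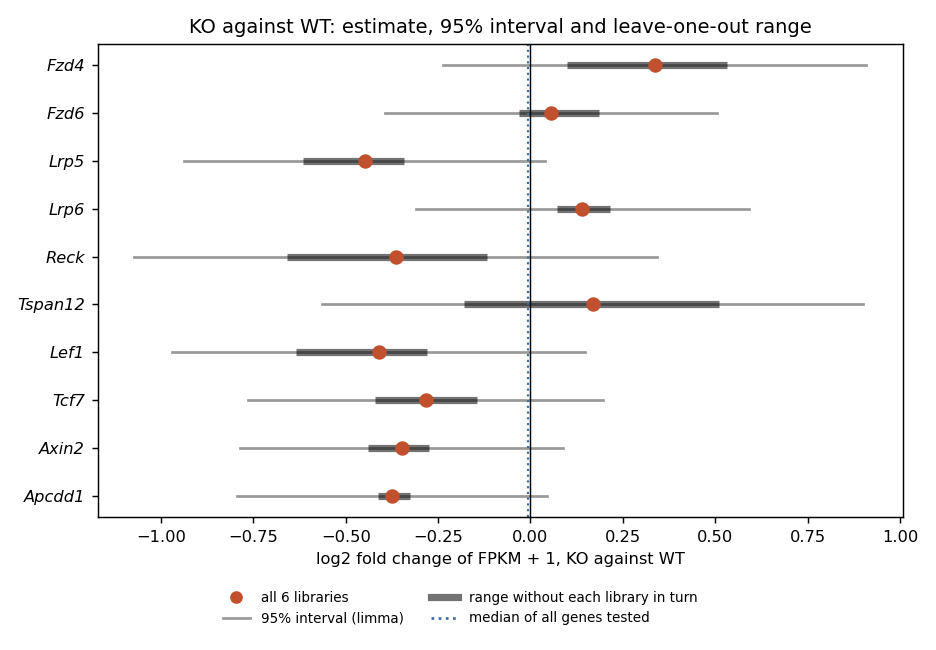
Log2 fold change of FPKM + 1 in KO against WT mice for each of the 10 genes (points), with 95% intervals from limma (thin lines) and the range when each library was left out in turn (thick lines). Every 95% interval includes 0, and the thick lines of *Fzd6* and *Tspan12* cross it.

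Both target genes were lower in every KO mouse than in any WT mouse. *Apcdd1*, on chromosome 18, encodes a membrane protein that inhibits Wnt signaling at the cell surface. Its level was 140, 152 and 134 FPKM across the WT libraries, against 114, 105 and 109 FPKM across the KO libraries. The highest KO value was thus under the lowest WT value, and the spread within each group was small. The mean was 142 ± 8.83 FPKM in WT and 109 ± 4.80 FPKM in KO microvessels (SD, n = 3 each), or 76.9% of the WT mean. The log2 fold change was −0.37 with a 95% interval of −0.79 to 0.04 (standard error 0.19; limma p = 0.074, adjusted p = 0.841; exact permutation p = 0.1). The KO values stayed below the WT values in all 7 scalings tried, the deposited values and a centring on endothelial markers among them. On the log2 scale, the lowest WT and highest KO values were 7.08 and 6.85 as deposited. They came close after quantile scaling (7.07 and 7.02), length correction (7.01 and 6.96) and endothelial centring (0.94 and 0.9). The unadjusted limma p of *Apcdd1* was under 0.05 in 5 of 19 alternatives and not in the rest.

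*Axin2*, at chr11:108917828-108950783, encodes a scaffold of the complex that degrades β-catenin. Its level was 21.9, 21.5 and 18.7 FPKM across the WT libraries, against 14.4, 15.6 and 18.4 FPKM across the KO libraries. KO 3 nearly reached WT 3, while KO 1 and KO 2 lay well under every WT mouse. The mean was 20.7 ± 1.75 FPKM in WT and 16.1 ± 2.04 FPKM in KO microvessels (SD, n = 3 each), or 77.7% of the WT mean. The log2 fold change was −0.35 with a 95% interval of −0.79 to 0.09 (standard error 0.20; limma p = 0.107, adjusted p = 0.841; exact permutation p = 0.1). The groups stayed apart in 5 of the 7 scalings and overlapped after median centring and after the correction for GC content. The ratio of *Axin2* to *Apcdd1* within a library was 0.146 ± 0.00914 in WT and 0.148 ± 0.0213 in KO microvessels (SD, n = 3 each), and the groups overlapped.

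The nuclear partners of β-catenin had lower means in KO mice, but their groups overlapped in the deposited values. *Lef1*, at chr3:131110297-131224357, had 19.8, 18.8 and 11.7 FPKM across the WT libraries, against 14.5, 10.03 and 12.1 FPKM across the KO libraries. WT 3 was within the KO range, and the other WT mice were above it. Its log2 fold change was −0.41 with a 95% interval of −0.97 to 0.15 (standard error 0.25; limma p = 0.132, adjusted p = 0.848; exact permutation p = 0.3). Without WT 3 it was −0.64, and *Lef1* then passed the unadjusted threshold of 0.05.
*Tcf7*, at chr11:52246527-52283383, had 17.2, 21.2 and 14.1 FPKM across the WT libraries, against 14.2, 12.6 and 15.2 FPKM across the KO libraries. Again WT 3 lay among the KO mice. Its log2 fold change was −0.28 with a 95% interval of −0.76 to 0.20 (standard error 0.22; limma p = 0.216, adjusted p = 0.877; exact permutation p = 0.3). Without WT 2 the log2 fold change of *Tcf7* was −0.14. Of the 7 scalings, only centring on endothelial markers put every KO value of *Tcf7* below every WT value. The margin there was very small, with KO 3 at −2.03 and WT 1 at −2.02 on the centred log2 scale. *Lef1* and *Tcf7* are also known from T cells, and the summed level of 6 T cell markers was 0.961 to 3.91 FPKM in WT and 2.55 to 3.84 FPKM in KO microvessels, with *Cd8a* listed at 0 in every library and *Cd3e* in every library but KO 3. The ratio of *Lef1* to *Tcf7* was 0.959 ± 0.172 in WT and 0.869 ± 0.13 in KO microvessels (SD, n = 3 each). Their difference was within the SD of each group.

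The co-receptors *Lrp5* and *Lrp6* had fold changes of opposite sign, and neither passed the test. *Lrp5*, at chr19:3584825-3686585, had 27.6, 30.2 and 22.9 FPKM across the WT libraries, against 17.7, 16.5 and 24.6 FPKM across the KO libraries. KO 3 was above WT 3, whereas KO 1 and KO 2 were under every WT mouse. The mean was 26.9 ± 3.68 FPKM in WT and 19.6 ± 4.34 FPKM in KO microvessels (SD, n = 3 each), or 72.9% of the WT mean. The log2 fold change was −0.45 with a 95% interval of −0.94 to 0.04 (standard error 0.22; limma p = 0.0682, adjusted p = 0.841; exact permutation p = 0.2). Without KO 3 it was −0.61, and *Lrp5* then passed the unadjusted threshold of 0.05. Its groups too were separated only by centring on endothelial markers, in 1 of the 7 scalings. For *Lrp5* the margin was as small, with KO 3 at −1.38 and WT 1 at −1.37.
*Lrp6*, its closest relative, at chr6:134446476-134566913, had 11.5, 9.30 and 10.2 FPKM across the WT libraries, against 10.6, 11.7 and 12.1 FPKM across the KO libraries. The groups overlapped, and the log2 fold change was 0.14 with a 95% interval of −0.31 to 0.59 (standard error 0.20; limma p = 0.504, adjusted p = 0.949; exact permutation p = 0.2). For *Lrp6* it was 0.07 without WT 2, 0.21 without WT 1 and 0.067 after GC correction. The ratio of *Lrp5* to *Lrp6*, a pair compared after the values had been seen, was 2.39, 3.25 and 2.25 across the WT libraries, against 1.67, 1.41 and 2.02 across the KO libraries. Every KO ratio was below every WT ratio, which is given as a description with no test. A factor applied to a whole library cannot alter this ratio, so only the quantile, GC content and transcript length alternatives could have moved it, and the KO values also lay below the WT values in these. The longest transcripts of these genes differ in GC content, at 54.7% for *Lrp5* and 46.0% for *Lrp6*, and the libraries differed in their trend on GC content. With each library corrected for that trend, the log2 difference of *Lrp5* minus *Lrp6* was 1.13, 1.46 and 1.04 across the WT libraries, against 0.76, 0.64 and 0.97 across the KO libraries.

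**Figure D3:**
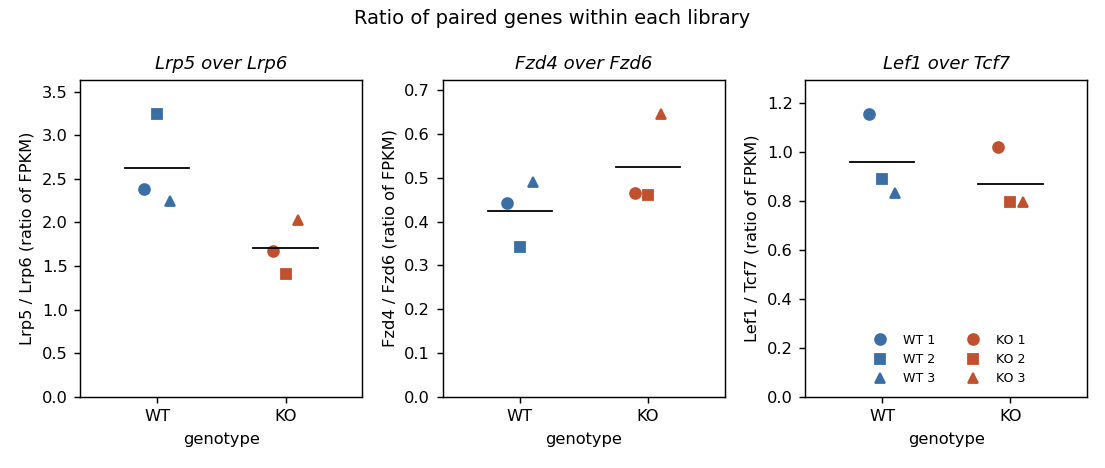
Ratio of FPKM values within each library for *Lrp5* over *Lrp6*, *Fzd4* over *Fzd6* and *Lef1* over *Tcf7*, on axes that start at 0, with a black line at each group's mean (n = 3 mice each). Only the ratio of *Lrp5* to *Lrp6* separates the groups, with WT libraries from 2.25 to 3.25 and KO libraries from 1.41 to 2.02.

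The Frizzled receptors overlapped between groups. *Fzd4*, the receptor for norrin and a main Frizzled of brain endothelium, at chr7:89404366-89410110, had 13.3, 9.92 and 12.1 FPKM across the WT libraries, against 11.2, 14.2 and 21.2 FPKM across the KO libraries. KO 3 stood above all other libraries, and KO 1 lay within the WT range. On the log2 scale the fold change was 0.34 with a 95% interval of −0.24 to 0.91 (standard error 0.26; limma p = 0.22, adjusted p = 0.877; exact permutation p = 0.4). It was 0.10 without KO 3 and 0.53 without KO 1. *Fzd6*, at chr15:39006149-39038192, had 30.1, 29.0 and 24.7 FPKM across the WT libraries, against 24.1, 30.8 and 32.8 FPKM across the KO libraries. Its log2 fold change was 0.06 with a 95% interval of −0.39 to 0.51 (standard error 0.20; limma p = 0.786, adjusted p = 0.979; exact permutation p = 0.6). That interval corresponds to 0.761 to 1.42 of the WT level on the scale of FPKM + 1. With each library left out, the log2 fold change of *Fzd6* ranged from −0.03 (without WT 3 or KO 3) to 0.18 (without KO 1). After GC correction it was 0.006. The ratio of *Fzd4* to *Fzd6* overlapped too, at 0.342 to 0.490 in WT and 0.461 to 0.646 in KO microvessels.

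The accessory receptors had the widest ranges over the 6 libraries among the 10 genes. *Reck*, a GPI-anchored partner of Adgra2, at chr4:43875521-43944806, had 17.9, 13.7 and 8.05 FPKM across the WT libraries, against 6.50, 12.03 and 11.1 FPKM across the KO libraries. KO 1 and WT 3 were the lowest, and WT 1 and WT 2 were above all KO mice. Its log2 fold change was −0.36 with a 95% interval of −1.07 to 0.34 (standard error 0.32; limma p = 0.277, adjusted p = 0.897; exact permutation p = 0.4). It was −0.66 without WT 3, −0.13 without WT 1 and −0.12 without KO 1.
*Tspan12*, at chr6:21771391-21879596, had 14.9, 5.13 and 9.03 FPKM across the WT libraries, against 12.2, 9.42 and 9.10 FPKM across the KO libraries. All KO values lay between WT 1 and WT 3. For *Tspan12* the log2 fold change was 0.17 with a 95% interval of −0.56 to 0.90 (standard error 0.33; limma p = 0.62, adjusted p = 0.96; exact permutation p = 0.8). It was −0.18 without WT 2, 0.05 without KO 1, 0.51 without WT 1 and 0.005 after GC correction.
The range over the 6 libraries on the log2 scale was 1.38 for *Tspan12* and 1.34 for *Reck*, against 0.35 for *Lrp6*. Of all genes tested, those closest to *Tspan12* over the 6 libraries were *Taf8*, *Zfp39* and *Ak6*, with a root mean square difference of centred log2(FPKM + 1) of 0.064, 0.079 and 0.083. *Mapk4*, *Arsi* and the pericyte marker *Atp13a5* were closest to *Reck*, each at 0.117. Among the 10 genes themselves the closest was *Lrp6* for *Tspan12*, at 0.361, and *Axin2* for *Reck*, at 0.316. The search over all genes tested includes the 10 genes, so its distances cannot be larger, and nothing follows from the contrast.

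The ligands and partner proteins that act with these receptors were present at uneven levels. *Wnt7a* was low and variable, at 2.00, 0.244 and 2.29 FPKM across the WT libraries, against 1.16, 2.88 and 0.550 FPKM across the KO libraries. The mean of *Wnt7b* was 4.61 ± 1.86 FPKM in WT and 3.76 ± 1.31 FPKM in KO microvessels (SD, n = 3 each). *Ndp*, which encodes norrin, was under the mean of 1 FPKM required for the test, with 0.974 to 1.75 FPKM in WT and 0.449 to 0.985 FPKM in KO microvessels. *Adgra2* had 13.9 to 17.3 FPKM in WT mice, against 13.9, 12.5 and 32.4 FPKM across the KO libraries, so that KO 3 stood apart as for *Fzd4*. The transcript of β-catenin itself, *Ctnnb1*, was at 245 ± 19.0 FPKM in WT and 247 ± 25.3 FPKM in KO microvessels (SD, n = 3 each). With limma it differed by 0.01 on the log2 scale (p = 0.968, exact permutation p = 0.8).

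Beyond the 10 genes, 102 genes of the pathway were listed by role, and 84 of them were tested. With limma, 5 of the 84 had an unadjusted p under 0.05, all lower in KO mice, and 0 passed adjustment. The share of 5.95% is near the 5.88% of all genes tested. The count of 5 became 2 without WT 1, 3 without WT 2, 11 without KO 2 and 2 after GC correction. KO values lay entirely below WT values for 8 of the 84 genes (9.52%, against 5.70% of all genes) and entirely above for 2 (against 5.37% of all genes). The median log2 fold change was −0.11.
Among 13 other receptors, 9 were lower and 2 had an unadjusted p under 0.05. *Ror2*, a receptor for non-canonical Wnt ligands, had 6.65, 5.54 and 3.59 FPKM across the WT libraries, against 1.28, 1.90 and 2.19 FPKM across the KO libraries. The log2 fold change of *Ror2*, −1.15, was the largest in size of the 84 (unadjusted limma p = 0.0038, adjusted p = 0.841; exact permutation p = 0.1). *Fzd1* had 14.0 ± 0.848 FPKM in WT and 10.01 ± 1.39 FPKM in KO microvessels (SD, n = 3 each; log2 fold change −0.45, limma p = 0.0499, exact permutation p = 0.1), and its unadjusted p was under 0.05 in only 6 of 19 alternatives. *Ryk* and *Fzd7*, the most abundant receptors of the list by the mean over all 6 libraries, had means of 22.0 and 21.5 FPKM in WT mice and of 22.4 and 19.8 FPKM in KO mice, with overlapping groups.
Among 14 antagonists and feedback genes, 8 were lower. *Dkk3*, a secreted member of the Dickkopf family, had 47.2, 39.7 and 34.6 FPKM across the WT libraries, against 31.6, 24.4 and 26.4 FPKM across the KO libraries (log2 fold change −0.54, limma p = 0.0244, exact permutation p = 0.1), and its unadjusted p was under 0.05 in 16 of 19 alternatives. *Sostdc1*, a secreted inhibitor of Wnt and BMP signaling, had 262 and 311 FPKM in KO 1 and KO 3 but 72.1 FPKM in KO 2, beside 78.4 to 111 FPKM in WT mice.
Among 14 nuclear genes, 8 were lower, and 2 had an unadjusted p under 0.05. *Bcl9l*, an adaptor between β-catenin and Pygopus, had 17.03 ± 2.32 FPKM in WT and 11.5 ± 2.18 FPKM in KO microvessels (SD, n = 3 each; log2 fold change −0.54, limma p = 0.0352, exact permutation p = 0.1). The unadjusted p of *Bcl9l* was under 0.05 in 12 of 19 alternatives, and the log2 fold change was −0.36 after GC correction, where the call was lost. *Tle3*, a Groucho-family co-repressor, had 18.9 ± 2.65 FPKM in WT and 13.4 ± 0.332 FPKM in KO microvessels (SD, n = 3 each; log2 fold change −0.46, limma p = 0.0406, exact permutation p = 0.1). The unadjusted p of *Tle3* was under 0.05 in 6 of 19 alternatives, and in none of those that left out a library. The most abundant nuclear genes by the same mean, the β-catenin antagonists *Cby1* and *Ctnnbip1*, had log2 fold changes of 0.06 and 0.02.
Of 15 ligands and secretion genes 8 were lower, of 13 cytoplasmic genes 6 were lower, and of 15 barrier genes downstream of the pathway 11 were lower, with 0 of them at an unadjusted limma p under 0.05. In these roles *Wls*, the carrier of secreted Wnt proteins, had a log2 fold change of 0.16, *Wnt4* of −0.21 and the kinase *Csnk1a1* of 0.09. The tight junction gene *Cldn5* had a log2 fold change of −0.14, and the glucose transporter *Slc2a1* one of −0.40 with overlapping groups (126 to 224 FPKM in KO mice and 164 to 349 FPKM in WT mice). In the promoter windows of the other pathway genes, 14 of 86 held the TCF and LEF core (16.3%, against 13.8% of all windows).

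**Figure D4:**
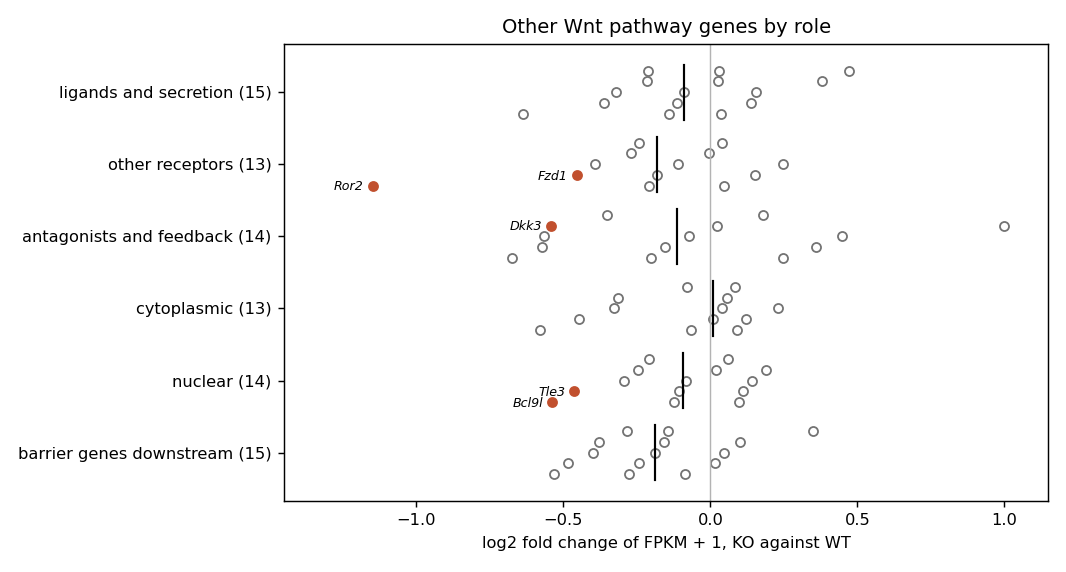
Log2 fold change of FPKM + 1 in KO against WT mice for the 84 other Wnt pathway genes tested, by role with the number tested, where filled points had an unadjusted limma p under 0.05 and black lines mark medians. The 5 filled points all lie below 0, and *Ror2* lies farthest out at −1.15.

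The preparations hold several cell types that express Wnt pathway genes, and their markers were read beside these results. The summed level of 13 endothelial markers overlapped, at 1124 to 1461 FPKM in WT and 1039 to 1337 FPKM in KO microvessels, and 8 of the 13 genes were lower. *Cdh5* alone had an unadjusted limma p under 0.05 and lay entirely below WT values, with a log2 fold change of −1.03, while *Emcn* and *Slco1c1* lay entirely above WT values. Sums of 4 fibroblast markers were 1186 to 1778 FPKM in WT and 784 to 1088 FPKM in KO microvessels, with all 4 genes lower. The collagens *Col1a1* and *Col1a2* lay entirely below WT values. *Dcn* and *Lum* had log2 fold changes of −0.18 and −0.05 with overlapping groups. Sums of 7 astrocyte markers were 611 to 724 FPKM in WT and 466 to 515 FPKM in KO microvessels, with all 7 genes lower. Only 2 of the 7, *Gfap* and *Gja1*, lay entirely below WT values. Sums of 5 markers of oligodendrocyte precursors were 101 to 123 FPKM in WT and 81.6 to 89.0 FPKM in KO microvessels, with all 5 genes lower. Taken singly, 0 of these 5 genes lay entirely below WT values. The sums of these 3 lists separated the groups in the same direction as *Apcdd1* and *Axin2*. Sums of 8 pericyte markers overlapped, at 818 to 1326 FPKM in WT and 862 to 957 FPKM in KO microvessels, but 7 of the 8 genes were lower and 3 of them, *Pdgfrb*, *Anpep* and *Cspg4*, lay entirely below WT values. Sums of 6 oligodendrocyte markers overlapped too, at 283 to 409 FPKM in WT and 150 to 356 FPKM in KO microvessels, with 5 of the 6 genes lower and 3 of them, *Mobp*, *Cnp* and *Mag*, at an unadjusted limma p under 0.05. Of 6 microglia markers 5 were lower, of 6 neuron markers 5 and of 3 erythroid markers 3, whereas of 4 smooth muscle markers 0 were lower, and the sums of these lists overlapped. The part of these cell types in the results for the Wnt genes was not tested. Of the markers in these lists, only *Hbb-bs* was listed at 0 in some libraries. Choroid plexus markers reached 8769 and 10461 FPKM in KO 1 and KO 3, against 2937 FPKM in KO 2 and 2822 to 3298 FPKM in WT mice. Their part in the results was not tested. With KO 2 as the only KO library, an alternative added after seeing the data, *Apcdd1* had a log2 fold change of −0.44 and *Axin2* one of −0.39. In that fit *Lrp5* was at −0.66, *Lef1* at −0.66, *Tcf7* at −0.42 and *Reck* at only −0.06. *Fzd4* was at 0.26, *Fzd6* at 0.14, *Lrp6* at 0.16 and *Tspan12* at 0.07. KO 2 also had the lowest estimated depth, 6200000 fragments, and the most negative trend on GC content, with a Spearman correlation across genes of −0.25.

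**Figure D5:**
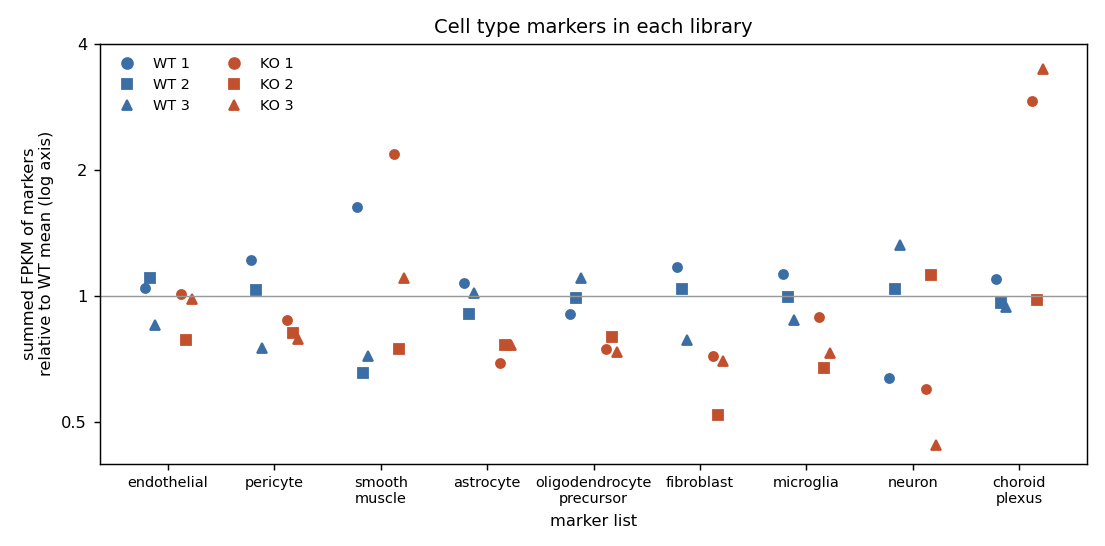
Summed FPKM of each marker list in each library relative to the mean of the WT libraries, on a log axis, with WT libraries in blue and KO libraries in orange. Fibroblast, astrocyte and oligodendrocyte precursor sums are lower in every KO library than in every WT library, and choroid plexus sums are high in KO 1 and KO 3 only.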

How the data were processed

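RNA of cerebral microvessels was sequenced from 3 WT and 3 KO mice, 1 library per mouse. The authors aligned the trimmed reads with TopHat to mm10 and deposited 1 table of FPKM values per library. No counts were used here. As the study's count test could not be applied to FPKM values, limma 3.58.1 (R 4.3.3) was run on log2(FPKM + 1) with a trended variance, over the 14247 symbols with a mean of at least 1 FPKM, and p-values were adjusted by Benjamini-Hochberg over all of them. Fold changes on this scale understate those of low genes. The script was tested on simulated data. Exact permutation tests were two-sided, and p-values measure the spread between mice. Depth was estimated from the spacing of low values and transcript lengths of GENCODE M21. All 10 members were named, with pathway genes at an unadjusted p under 0.05, the 2 most abundant tested genes of each role and the ligands and partners of the receptors. The 3 most alike genes were named for the 2 members with the widest log2 range. The members and lists were chosen with earlier results of these data known. Alternatives covered the pseudocount, filter, variance trend, scaling, GC and length correction, replicate block and each left-out library. Centring on endothelial markers and KO 2 alone were added after seeing the data. The centring markers include *Cldn5*, *Abcb1a* and *Slco1c1*, which are also among the listed barrier genes downstream of the pathway. Same-numbered libraries, by the numbers of the sample titles, did not deviate together (r from 0.00 to 0.04). The column headers number them otherwise, with 4, 6 and 8 for WT and 1, 2 and 6 for KO. There only WT 2 and KO 3 share a number (r = −0.05), and the replicate block did not pair them.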

Additional observations from a re-analysis of the deposited data

How the results depend on the processing

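Over 19 alternatives, *Lrp5*, *Reck*, *Lef1*, *Tcf7*, *Axin2* and *Apcdd1* had a log2 fold change below 0 in each, and *Fzd4* and *Lrp6* above 0 in each. *Tspan12* turned to −0.18 without WT 2, and *Fzd6* to −0.03 without WT 3 and to −0.03 without KO 3, while the highest values on leaving out a library were 0.51 for *Tspan12* and 0.185 for *Fzd6*. With limma, 0 of the 10 genes had an unadjusted p under 0.05, against 1 without the filter, 1 after quantile scaling and 1 after GC correction, each time *Apcdd1*, 0 to 1 when each library was left out, and 2 with KO 2 alone (*Lrp5* and *Apcdd1*). The median of the 10 genes was −0.415 to −0.196 when each library was left out. Of the other pathway genes, 5 had an unadjusted p under 0.05, against 3 without the variance trend, 2 after GC correction, 3 with the replicate block and GC correction, 2 to 11 when each library was left out and 8 with KO 2 alone. Over all genes the count of 838 became 450 (without WT 2) to 1871 (without KO 2), and 1825 with KO 2 alone. After adjustment 0 genes became 0 to 4 when each library was left out and 7 with KO 2 alone. The replicate block gave 871 genes, 0 of the 10 genes and 5 other pathway genes, without *Fzd1* and *Tle3*. Centring on endothelial markers moved the median of all genes to 0.101 and that of the 10 genes to −0.209. Of the genes with an unadjusted limma p under 0.05 after this centring, 627 were higher and 173 lower in KO mice. The causes were not tested. A lone KO library is assumed to vary like the other group. With 3 mice a group, the standard errors of 0.188 to 0.329 limit what could be detected.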

Other observations

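Libraries differed in their trend on transcript composition. Across 13726 genes, which are not independent replicates, the Spearman correlation of a library's deviation with GC content was 0.08, 0.31 and 0.15 across the WT libraries by number, against −0.14, −0.25 and −0.03 across the KO libraries. That with transcript length was 0.01 to 0.05 for WT and −0.30, 0.29 and −0.14 for KO libraries. The longest transcripts of the 10 Wnt genes ranged in GC content from 40.5% for *Tspan12* to 54.7% for *Lrp5*.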
